A study of Mus musculus with 8 samples.

Results

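The CCN genes Ccn1 to Ccn5 were followed in knee cartilage of naive mice and of mice with a destabilised medial meniscus. The 5 members were picked by symbol (older names Cyr61, Ctgf, Nov, Wisp1 and Wisp2) out of 50462 gene identifiers in the table of estimated counts, and all 5 were counted in all 8 libraries. Ccn1, Ccn4 and Ccn5 rose to between 2.05- and 2.67-fold of the naive level without any overlap between the groups. Ccn3 rose 2.0-fold with overlapping groups. Ccn2, by far the most abundant of the family, had a fold change of 1.09 (95% interval 0.83 to 1.42) that did not pass the test. The sixth gene of the family, Ccn6, is not a member of the set and is given only for reference.

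Each library was RNA-seq of medial knee cartilage caps from 1 wild-type male C57Bl/6J mouse. Naive mice (n = 4) had no operation and were killed at day 0, at 11 weeks of age. DMM mice (n = 4) had surgery at 11 weeks and were killed at day 42, at 17 weeks of age. In DMM, a model of post-traumatic osteoarthritis, the ligament holding the medial meniscus of the left knee to the tibia is cut. The operated mice also received buprenorphine and isoflurane, and sham-operated mice were not analysed here. Effects of the operation, of these drugs and of 6 weeks of age cannot be told apart.

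CCN proteins are secreted, cysteine-rich matricellular proteins that sit in the matrix and bind integrins, heparan sulphate proteoglycans, growth factors and other matrix components rather than forming a scaffold themselves. Most are built of an insulin-like growth factor binding protein (IGFBP)-like module, a von Willebrand factor C module, a thrombospondin repeat and a C-terminal cystine-knot module, the last of which is lacking in Ccn5. Ccn1 and Ccn2 are textbook targets of the mechanosensitive coactivators Yap and Taz, and Ccn2 is also a TGF-beta target that is needed for normal growth plate cartilage. Ccn4 was first described as a gene induced by Wnt1.

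In the GENCODE vM21 annotation of GRCm38, Ccn1 is at chr3:145646976-145649981 on the minus strand, Ccn2 at chr10:24595442-24598683, Ccn5 at chr2:163820861-163833146, and Ccn3 and Ccn4 at chr15:54745702-54754039 and chr15:66891320-66923201, all 4 on the plus strand. The coding sequences give proteins of 379 (Ccn1), 348 (Ccn2), 354 (Ccn3), 367 (Ccn4) and 251 residues (Ccn5) with 38, 39, 40, 38 and 29 cysteines. To show how far the members differ base by base, the exonic coding bases around 4 cysteines in the IGFBP-like module are printed. They run 5′ to 3′ from the GENCODE transcripts, with cysteine codons in capitals. Each stretch was found by searching the protein for a fixed spacing of these 4 cysteines after a glycine.
Ccn1: ggcTGCggcTGCTGTaaggtcTGC
Ccn2: ggcTGCggcTGCTGCcgcgtcTGC
Ccn3: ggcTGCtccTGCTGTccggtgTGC
Ccn4: ggcTGTgaaTGCTGTaagataTGT
Ccn5: ggcTGTggcTGCTGTcgagtgTGT
The cysteine codons stand in the same places in all 5 genes because the search required it, whereas the bases between them differed. Sharing over longer stretches was small. Of the 31-base words in each gene's transcripts, none were found in another gene for Ccn1, Ccn4 and Ccn5, 0.14% for Ccn2 and 1.383% for Ccn3. These words were compared in the transcript direction only, so sharing with transcripts of the opposite strand was not looked for.

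A promoter sequence was at hand for 1 of the 5 genes, Ccn1, and is printed because its motifs bear on the gene lists described further on. The 130 bases in front of the RefSeq start site (GRCm38.p6, chr3:145649986-145650115, minus strand) carry in capitals, from 5′ to 3′, a match to the TEAD motif, a match to the cyclic AMP response element and a TATA box.
Ccn1 promoter: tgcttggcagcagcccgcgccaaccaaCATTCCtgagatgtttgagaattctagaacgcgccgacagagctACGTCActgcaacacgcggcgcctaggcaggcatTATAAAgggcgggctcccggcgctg
Motifs were searched on both strands from 250 bases before to 50 bases after the start site. The TEAD motif GGAATG matched on the reverse strand at position -103 and is held by 14.7% of the 32851 promoters of the same length. The response element TGACGT matched on the reverse strand at position -59 (7.5% of promoters) and TATAAA at position -25 (13.6%). The Smad motif CAGACA (21.0%), the AP-1 motif TGANTCA (7.8%) and the serum response factor CArG core in a single spelling (0.1%) had no match in this window. These motifs do not overlap one another in the printed stretch, and a match is a likeness of letters only.

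Libraries held between 12479443 and 16548002 estimated counts. A single identifier without a symbol took 10.1 to 17.9% of these counts in naive and 4.31 to 8.65% in DMM libraries (exact permutation p = 0.0286), and its part in the results was not tested. The total count as scaling, which includes it, left each call of a CCN gene as it was. Chondrocyte markers were abundant, with Col2a1 at 23979 ± 9798 normalised counts in naive mice and 63821 ± 27070 in DMM mice (SD, n = 4 per group), while Matn1 averaged 5.24 and 0.889 and was at 0 in some libraries. Of the 10 chondrocyte markers tested, 5 were called higher, none lower and 5 were not called. A log2 fold change below 0 was found for 3 of the 10 (Prg4, Col9a1 and Matn3). Prg4 had 55406 ± 29212 normalised counts in naive and 38199 ± 9858 in DMM mice (-0.54 in log2, DESeq2 adjusted p = 0.418). The summed share of the chondrocyte markers in all counts was 0.526 to 0.973% in naive and 0.926 to 1.40% in DMM libraries. A two-sided exact permutation test over libraries gave p = 0.0571. The mean share was 0.704% in naive and 1.16% in DMM libraries, against 1.02% and 0.621% for neutrophil lineage markers. In libraries of whole tissue, a change in the number of cells of a type and a change in RNA per cell cannot be told apart. The same holds for every result below.

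Normalised counts are estimated counts divided by the DESeq2 size factor of the library. A gene was called where the adjusted p of DESeq2 was at most 0.05 and the groups differed by at least 1.5-fold. Over the 18707 genes tested, 13.0% were called, 7.38% as higher and 5.63% as lower in DMM. Of the 5 CCN genes, 4 were called, each as higher. The groups did not overlap for 3 of them, where over all genes tested 11.5% had DMM libraries entirely above the naive ones. The median log2 fold change of all genes tested was -0.01.

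**Figure D1:**
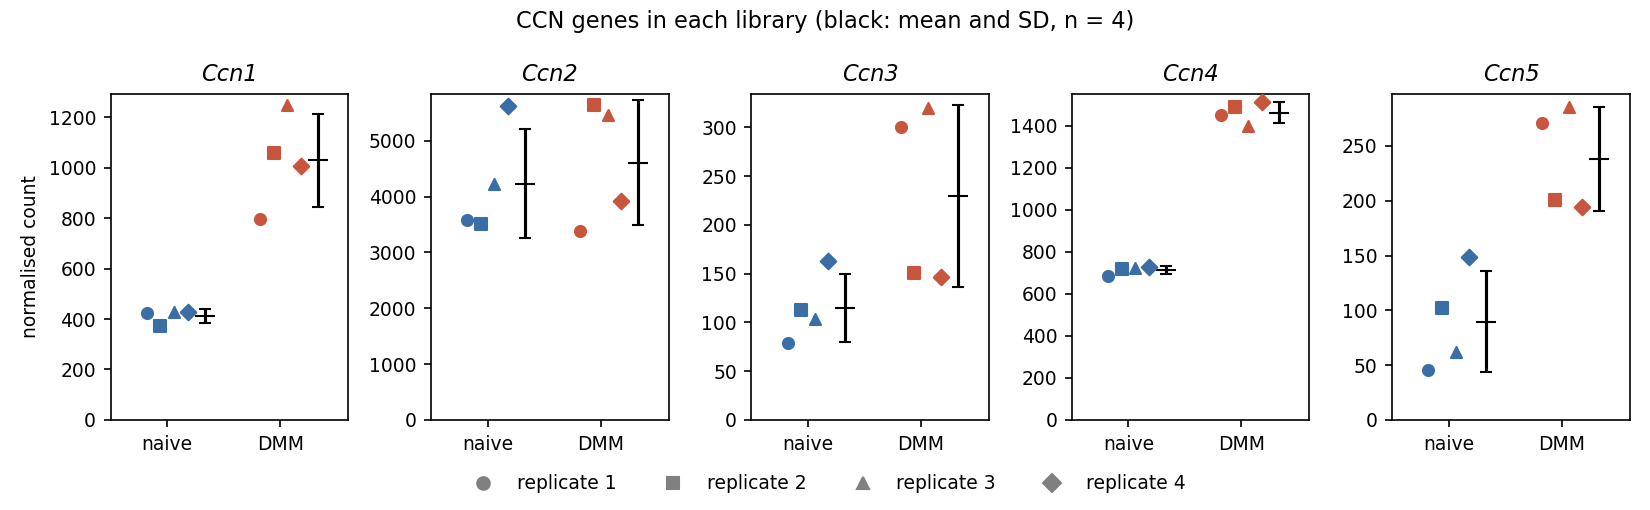
Normalised counts of Ccn1 to Ccn5 (vertical axes from 0, a scale of its own for each gene) in each naive (blue) and DMM (red) library, with symbols for the replicate number and black bars for the mean and SD (n = 4). All DMM libraries lie above all naive libraries for Ccn1, Ccn4 and Ccn5, the groups overlap for Ccn3, and they share most of their range for Ccn2.

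Ccn1, which encodes a ligand of integrins that acts on adhesion, migration and senescence, is induced rapidly by serum and by strain. The gene had 423.0, 372.5, 429.2 and 427.5 normalised counts in naive replicates 1 to 4 and 797.8, 1056.7, 1249.6 and 1008.1 in DMM replicates 1 to 4. The naive libraries were nearly level apart from replicate 2, which was the lowest, and every DMM library was above every naive one. Its mean rose from 413.0 ± 27.2 to 1028 ± 186 (SD, n = 4), a change of 1.31 in log2 (standard error 0.15, adjusted p = 1.64e-15 by DESeq2). On the linear scale this was 2.49-fold with a 95% interval from 2.03 to 3.04. By p, Ccn1 stood in place 11 of the 18707 genes tested. Its adjusted p was less extreme in other tests, at 0.0016 with edgeR's quasi-likelihood test and 0.00183 with limma-voom. The spread between libraries was 6.57% of the mean in naive and 18.1% in DMM, where counting error alone gives 5.10% and 2.96%.

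Ccn2, which encodes connective tissue growth factor, had 3573, 3516, 4218 and 5617 normalised counts in naive replicates 1 to 4. In DMM replicates 1 to 4 it had 3387, 5645, 5455 and 3921. The lowest of all 8 libraries was DMM replicate 1 and the highest DMM replicate 2, with naive replicate 4 close to the latter, so that the groups overlapped over nearly their whole range. The mean was 4231 ± 977 in naive mice and 4602 ± 1119 in DMM mice (SD, n = 4), a change of 0.12 in log2 (standard error 0.20, adjusted p = 0.745 by DESeq2). The 95% interval ran from 0.83- to 1.42-fold and thus did not reach the 1.5-fold at which genes were called. Counting error was not what limited this comparison: the spread between libraries was 23.1% in naive and 24.3% in DMM against a counting error of 1.601% and 1.403%. Among 11036 genes with a mean of at least 100, 87.1% had a smaller relative spread than Ccn2 in naive and 89.3% in DMM libraries.

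Ccn2 shares its locus with Gm15270, a processed transcript annotated on the opposite strand, and whether the counting used strand is not given in the sources used here. Gm15270 had 481 ± 216 normalised counts in naive mice and 348 ± 86.1 in DMM mice (SD, n = 4), a log2 fold change of -0.47 that did not pass the test (SE 0.29, DESeq2 adjusted p = 0.265). It amounted to between 8.02 and 13.4% of Ccn2 in naive and between 6.83 and 8.77% in DMM libraries. Whether reads were exchanged between these genes was not tested.

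Ccn3, which encodes a member with growth-restraining activity known from chondrocytes and other mesenchymal cells, had 79.2, 113, 104 and 163 normalised counts in naive replicates 1 to 4. DMM replicates 1 to 4 had 300.2, 151, 319 and 147. DMM replicates 1 and 3 lay far above all naive libraries, whereas DMM replicates 2 and 4 fell just below naive replicate 4. The mean rose from 115 ± 35.3 to 229 ± 93.3 (SD, n = 4), a change of 1.0 in log2 (standard error 0.30, adjusted p = 0.00756 by DESeq2) and 2.0-fold (95% interval 1.33 to 3.02). The call was lost without DMM replicate 1 (log2 fold change 0.85, DESeq2 adjusted p = 0.0576) and without DMM replicate 3 (0.80, DESeq2 adjusted p = 0.0525). It was also lost with limma-voom (1.02, adjusted p = 0.0561).

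Ccn4, the Wnt1-induced member, had 685, 717, 724 and 729 normalised counts in naive replicates 1 to 4 and 1450, 1492, 1400.3 and 1512 in DMM replicates 1 to 4. Within each group the libraries were almost level, and the groups were far apart. The mean rose from 714 ± 19.7 to 1463 ± 49.4 (SD, n = 4), a change of 1.04 in log2 (standard error 0.08, adjusted p = 3.6e-31 by DESeq2), or 2.05-fold (95% interval 1.83 to 2.30). Ccn4 stood in place 2 of the 18707 genes by p but in place 605 by size of increase. With edgeR's quasi-likelihood test its adjusted p was 0.000314 and with limma-voom 0.000342, both far less extreme than that of DESeq2. Its relative spread was 2.76% in naive and 3.38% in DMM libraries, at or near the counting error of 3.90% and 2.48%. Only 2.2% of the 11036 genes with a mean of at least 100 varied less among naive libraries and 3.2% among DMM libraries.

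Ccn5, the member without the C-terminal module, had 45.7, 102, 62.1 and 149 normalised counts in naive replicates 1 to 4. In DMM replicates 1 to 4 it had 271, 201, 286 and 194. Relative to their mean, naive libraries differed among themselves more than DMM libraries did, and the lowest DMM library was still above the highest naive one. The mean rose from 89.7 ± 45.9 to 238 ± 47.2 (SD, n = 4). This was the largest fold of the 5 members, a change of 1.42 in log2 (standard error 0.31, adjusted p = 0.000128 by DESeq2) and 2.67-fold (95% interval 1.75 to 4.07). The interval overlaps those of Ccn1, Ccn3 and Ccn4, and the differences between these fold changes were not tested. The relative spread of Ccn5 was 51.2% in naive libraries, where 99.2% of the 11036 genes varied less, and 19.8% in DMM libraries.

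Ccn6 was barely counted, with at most 17.9 estimated counts in any library. Its 7.94 to 11.8 normalised counts in naive and 9.95 to 16.3 in DMM libraries overlapped (log2 fold change 0.28, SE 0.47, DESeq2 adjusted p = 0.752). Its 95% interval ran from 0.64- to 2.31-fold.

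**Figure D2:**
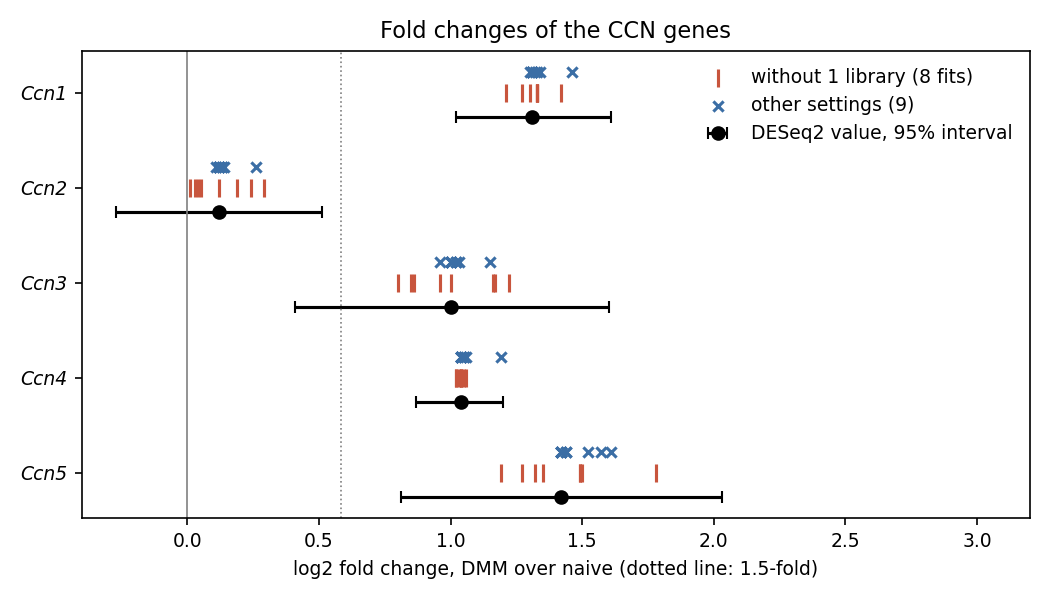
Log2 fold change (DMM over naive, horizontal axis) of each CCN gene: black points and bars give the DESeq2 value and its 95% interval, red ticks the 8 fits that each leave out 1 library, and blue crosses 9 other settings. Only the interval of Ccn2 includes 0, the values of Ccn4 without 1 library stay between 1.02 and 1.06, and those of Ccn3 and Ccn5 spread from 0.80 to 1.22 and from 1.19 to 1.78.

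Levels were compared between genes only after division by transcript length. On this scale, TPM from the mean length of a gene's coding transcripts, which divides counts by length and by the summed level of the library, Ccn2 stood at 312 ± 96.9 in naive mice and 369 ± 81.4 in DMM mice (SD, n = 4). It exceeded 98.2% and 98.5% of the genes tested. With the median transcript length in place of the mean, its level was 193 and 226. Ccn4 and Ccn1 came next in naive libraries at 31.2 ± 3.21 and 26.1 ± 3.72. Their ranges overlapped, but within each naive library Ccn4 was above Ccn1 (log2 ratio of Ccn1 to Ccn4 from -0.42 to -0.17). In DMM libraries the range of Ccn4 lay within that of Ccn1, at 70.8 ± 4.42 for Ccn4 and 71.1 ± 10.6 for Ccn1. Both genes passed from above 76.9% (Ccn4) and 72.9% (Ccn1) of genes to above about 90% (90.1% and 90.2%). Ccn5 (6.69 ± 3.77 in naive, 19.4 ± 3.56 in DMM) and Ccn3 (5.14 ± 1.92 and 11.2 ± 4.39) were lowest. Their libraries overlapped in naive mice but not in DMM mice, where the lowest Ccn5 value (16.2) was above the highest Ccn3 value (15.1). Neighbours in the order other than Ccn4 with Ccn1 and, in naive mice, Ccn5 with Ccn3 did not overlap. With the longest transcript in place of the mean length, Ccn1 (32.6 in naive, 89.8 in DMM) came above Ccn4 (22.2 and 50.9) in both groups.

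**Figure D3:**
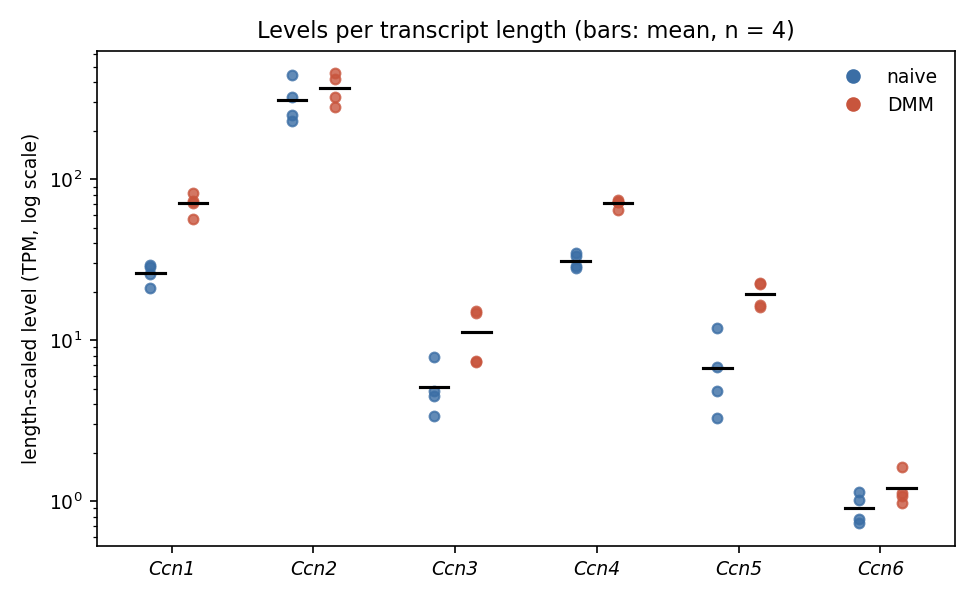
Length-scaled level (TPM, log axis) of the 5 CCN genes and of Ccn6 in naive (blue) and DMM (red) libraries, with bars for the mean of 4. Ccn2 lies highest in both groups, and Ccn1, Ccn4 and Ccn5 lie higher in DMM than in naive libraries without overlap.

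The make-up of the family changed accordingly. The 5 members summed to 381 ± 108 TPM in naive and 541 ± 85.7 in DMM libraries, with overlapping ranges of 289 to 528 and 447 to 625. Ccn2 made up 81.4% of this sum in naive libraries (79.2 to 84.2%) and 67.6% in DMM libraries (62.7 to 72.8%). The share of Ccn1 was 7.0% and 13.2%, that of Ccn4 8.5% and 13.4%, that of Ccn5 1.7% and 3.7%, and that of Ccn3 1.3% and 2.1%. With the median transcript length the sum was 251 in naive and 371 in DMM libraries and the Ccn2 share 76.1% and 60.3%, and with the longest the sum was 343 and 505.0 and the share 79.2% and 64.0%.

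Ratios within a library do not depend on the size factor of that library. The log2 ratio of Ccn1 to Ccn2 per length was between -3.93 and -3.29 in naive and between -2.63 and -2.17 in DMM libraries, a difference of 1.19. Ccn4 and Ccn5 likewise gained on Ccn2: the log2 ratio of Ccn2 to Ccn4 went from between 3.03 and 3.68 to between 1.96 and 2.70, and that of Ccn2 to Ccn5 from between 5.08 and 6.27 to between 3.62 and 4.79. For Ccn2 to Ccn3 the ranges of 5.67 to 6.21 and 4.22 to 5.95 overlapped. Relative to Ccn2, 3 of the 4 other members were thus entirely higher in DMM, as were 4.61% of all other genes tested. Among the 6 pairs without Ccn2, none parted the groups, and Ccn1 to Ccn4 was between -0.42 and -0.17 in naive and between -0.34 and 0.36 in DMM libraries.

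Within the groups, some members varied together. Ccn3 and Ccn5 followed each other: measured as log2 deviation from the group mean, DMM replicates 1 and 3 were above it (0.48 and 0.57 for Ccn3, 0.21 and 0.28 for Ccn5) and DMM replicates 2 and 4 below it (-0.51 and -0.54, -0.22 and -0.27). Among naive libraries both were lowest in replicate 1 and highest in replicate 4. Over the 8 libraries, which share dissection, depth and size factors between genes, Pearson's r of these deviations was 0.81 and Spearman's rho 0.69. The second pair was Ccn1 with Ccn2 (r = 0.73, rho = 0.81), both of which were lowest in DMM replicate 1 and above the mean in DMM replicates 2 and 3. The other 8 pairs had an r between -0.27 and 0.38, values that pool groups in which some pairs went different ways. Among naive libraries, Ccn2, Ccn3, Ccn4 and Ccn5 were all highest in replicate 4 (0.44, 0.55, 0.03 and 0.86) and all below the mean in replicate 1 (-0.22, -0.48, -0.06 and -0.81). Among DMM libraries, Ccn4 had signs opposite to those of Ccn3 and Ccn5. Its replicates 1 and 3 were below the mean (-0.01 and -0.06) and replicates 2 and 4 above it (0.03 and 0.05). No Ccn4 deviation was larger than 0.06 in either group, and its spread was at or near the counting error. The signs and order of the Ccn4 deviations are therefore not read as a pattern. These values describe 8 libraries and carry no test.

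**Figure D4:**
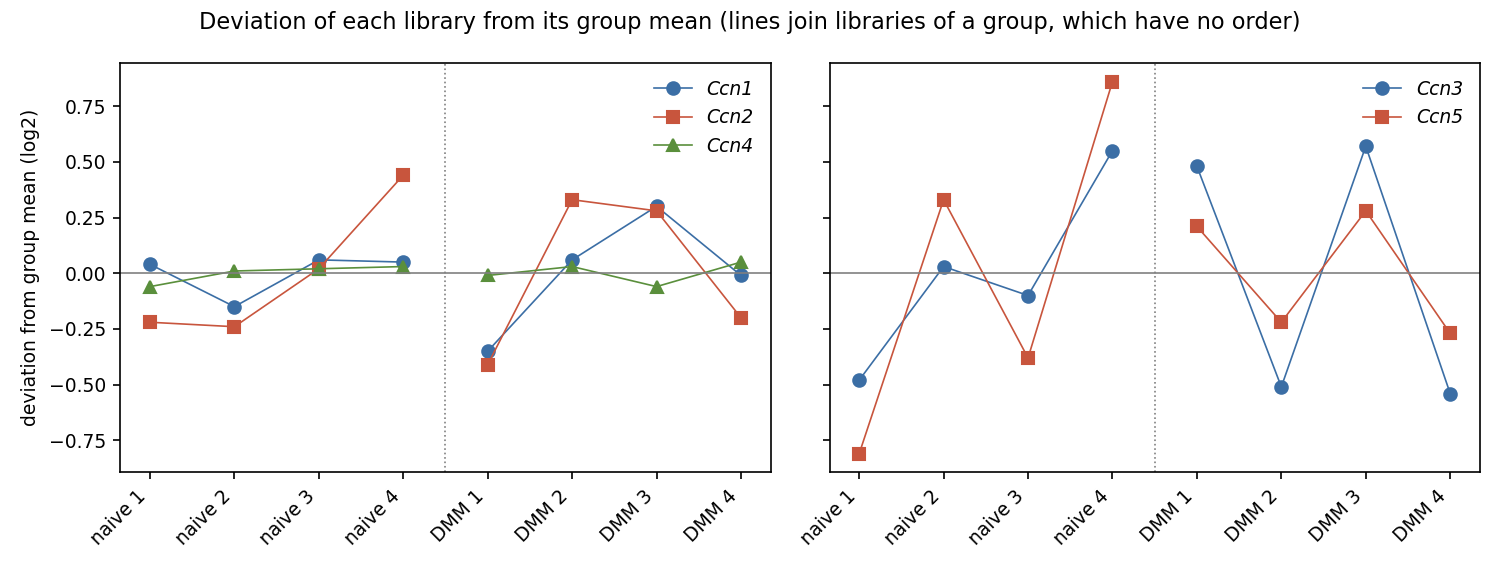
Log2 deviation of each library from the mean of its group (vertical axis) for Ccn1, Ccn2 and Ccn4 (left) and for Ccn3 and Ccn5 (right), with libraries on the horizontal axis and lines only to guide the eye. Ccn3 and Ccn5 go up and down in the same DMM libraries, and Ccn4 stays within 0.06 of 0 in all 8.

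Shares of markers of other cell types were compared with these patterns. The synovial fibroblast list summed to 0.0201, 0.0198, 0.0244 and 0.0303% of counts in naive replicates 1 to 4 and to 0.0474, 0.0314, 0.0513 and 0.0325% in DMM replicates 1 to 4 (p = 0.0286 in the same exact permutation test, the least that 4 against 4 can give). It was thus highest in DMM replicates 1 and 3, the libraries in which Ccn3 and Ccn5 were highest. Of its 8 genes, 3 were called higher and none lower, and 7 had a log2 fold change above 0. The other, Pi16, was lower without overlap but under the 1.5-fold threshold (log2 fold change -0.35, DESeq2 adjusted p = 0.0101). The tendon and ligament list was also highest in DMM replicates 1 and 3 (0.0294 and 0.0397%, against 0.0162 and 0.0218% in replicates 2 and 4), with 3 of 5 genes higher and overlapping groups (exact permutation p = 0.457). The osteoblast and osteocyte list held 0.132 to 0.199% of counts in naive and 0.326 to 0.596% in DMM libraries, with 8 of 9 genes called higher. The smooth muscle and pericyte list held 0.0167 to 0.0339% and 0.0459 to 0.0606%, with 6 of 7 genes called higher. It too was highest in DMM replicates 1 and 3 (0.0528 and 0.0606%, against 0.0459 and 0.0478% in replicates 2 and 4). Neutrophil lineage markers held 0.822 to 1.15% and 0.385 to 0.813%, with 8 of 8 genes called lower. Each of these 3 lists parted the groups (exact permutation p = 0.0286), but adjusted over the 11 marker lists the exact permutation p was 0.0786 for them and for the synovial fibroblast list. Of the other lists, 5 of 5 erythroid genes were called lower, 2 of 7 endothelial genes higher and 1 lower. No B cell, macrophage or skeletal muscle gene was called. Apart from the synovial fibroblast, tendon and smooth muscle lists, no list was highest in DMM replicates 1 and 3. The chondrocyte, osteoblast and osteocyte, neutrophil and erythroid lists were highest in DMM replicates 3 and 4. Endothelial, B cell and skeletal muscle lists were highest in DMM replicates 1 and 2, and the macrophage list in 2 and 3. No gene of these lists was at 0 in all libraries, and the part of these cell types in the results for the CCN genes was not tested.

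The genes whose deviations most resembled those of each member were looked up among 11035 genes with a mean of at least 100, over the 8 libraries. For Ccn1 these included Srp54a (r = 0.973) and Wwp1 (0.973), which encodes a ubiquitin ligase. For Ccn2 they were Larp6 (0.973), Ltbp2 (0.960) and Sc5d (0.954). Larp6 encodes a protein that binds collagen messenger RNA, and Ltbp2 a latent TGF-beta binding protein. For Ccn3 they were Il11ra1 (0.984), Fndc1 (0.983) and Fhl1 (0.980), and for Ccn5 Capg (0.982), Slc39a13 (0.970) and Gaa (0.965). For Ccn4 they were A830082K12Rik (0.984), Usp17la (0.978) and Gm14917 (0.974). The deviations of Ccn4 on which these likenesses rest were at most 0.06.

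The CCN genes were set beside genes that act before and after them, in lists that name regulators, other targets of the same regulators, binding partners and proteinases. Some genes (Amotl2, Lats2, Tgfb1, Tgfb2 and Acta2 among them) stand in more than 1 list. Where genes of a list are counted as having risen or fallen, this means called as higher or lower, and smaller changes are not counted. Counts of called genes are to be read against 7.38% of all tested genes called higher and 5.63% called lower, and medians against -0.01.

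Upstream of Ccn1 and Ccn2, 7 of 20 genes of the Hippo pathway and the Tead factors were called higher, none lower and 13 were not called. The median log2 fold change was 0.40. Among those not called, Mob1b (-0.37, without overlap) and Stk4 (-0.39) were lower (DESeq2 adjusted p = 0.00145 and 0.0225). Vgll4 (0.54) and Lats1 (0.34) were higher without overlap (DESeq2 adjusted p = 4.42e-05 and 0.00613). Yap1, the coactivator restrained by this pathway, rose from between 289 and 421 to between 552 and 686 normalised counts (log2 fold change 0.86, SE 0.15, DESeq2 adjusted p = 9.14e-07). Its paralogue Wwtr1, which encodes Taz, rose from between 301 and 674 to between 817 and 1171 (1.03, SE 0.22, DESeq2 adjusted p = 6.58e-05). Tead1, the DNA-binding partner of both, rose from between 255 and 382 to between 502 and 587 (0.77, SE 0.15, DESeq2 adjusted p = 1.86e-05). Amotl2 and Amotl1, which encode angiomotins that bind Yap, rose by 0.89 and 0.72 on the log2 scale (DESeq2 adjusted p = 3.36e-07 and 5.03e-06).

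Of 19 tested genes known as Yap or Taz targets other than the CCN genes, 9 rose, 1 fell and 9 were not called, with a median of 0.67. Nt5e, which encodes the ecto-5′-nucleotidase CD73, rose by 1.37 (DESeq2 adjusted p = 3.83e-12), Ccdc80 by 1.21 (DESeq2 adjusted p = 5.08e-07) and the Hippo phosphatase gene Ptpn14 by 0.79 (DESeq2 adjusted p = 1.89e-06). The stress gene Gadd45a fell by 0.59 (DESeq2 adjusted p = 0.000599). Ankrd1, often used beside Ccn1 and Ccn2 as a readout of Yap, was too low for a test, at 0.884 ± 0.599 normalised counts in naive mice and 1.75 ± 0.573 in DMM mice (SD, n = 4). Among 15 genes of the Srf and Mrtf pathway, which drives Ccn1 and Ccn2 in response to actin, 2 rose (Fhl2 by 0.62 and Acta2 by 1.55), Myl9 fell by 0.74 and 12 were not called, with a median of -0.22. Acta2 is also on the smooth muscle list above.

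Of 21 immediate early genes, the class to which Ccn1 belongs by its rapid induction, 6 rose and none fell, with a median of 0.41. These included the transcription factor genes Jun (0.82, DESeq2 adjusted p = 0.000108), Nr4a1 (0.80, DESeq2 adjusted p = 0.000281), Klf4 (0.60, DESeq2 adjusted p = 0.000283) and Egr3 (1.05, DESeq2 adjusted p = 0.00104). Without naive replicate 1 or without DMM replicate 3, 3 of the 21 were called.

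In the TGF-beta list, 9 of 17 genes rose and none fell, with a median of 0.59. Ltbp2 rose by 1.03 (DESeq2 adjusted p = 2.4e-06), Smad3 by 0.59 (DESeq2 adjusted p = 2.25e-05) and Skil, which encodes a feedback inhibitor, by 0.60 (DESeq2 adjusted p = 4.05e-05). The ligand gene Tgfb1 was level at 2252 ± 215 in naive mice and 2244 ± 248 in DMM mice (SD, n = 4) (log2 fold change -0.01, SE 0.12, DESeq2 adjusted p = 0.986). Without naive replicate 1 or without DMM replicate 3, 5 of the 17 were called.

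Among 25 receptors and binding partners of CCN proteins, 10 rose, 1 fell and 14 were not called, with a median of 0.54. The proteoglycan genes Acan and Dcn rose by 1.09 and 1.30 (DESeq2 adjusted p = 8.16e-09 and 8.17e-07), Igf2r by 0.64 (DESeq2 adjusted p = 4.09e-06) and Bmp2, which encodes a growth factor that CCN proteins bind, by 1.21 (DESeq2 adjusted p = 8.96e-06). Itgam, the leukocyte integrin chain that binds Ccn1 and Ccn2, fell by 0.68 (DESeq2 adjusted p = 0.00055), as the neutrophil lineage markers did. Itgav, a chain of the main integrin receptors of the family, went from between 1565 and 2136 to between 2307 and 2894 normalised counts without overlap. Its change of 0.58 in log2 (standard error 0.13, adjusted p = 0.000137 by DESeq2) passed the p threshold but stayed just under 1.5-fold. Among the other integrin chains not called, Itgb3 (-0.55), Itga6 (-0.53) and Itgb2 (-0.58) were lower without overlap (DESeq2 adjusted p = 0.000236, 2.22e-05 and 0.00175). Itgb5 (0.56) and Itgb1 (0.28) were higher without overlap and Itga5 (0.54) with overlap (DESeq2 adjusted p = 0.00224, 0.0392 and 0.00494). Without naive replicate 4, in which Itgav was highest among naive libraries, 18 of the 25 genes were called.

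Of 7 tested proteinase genes whose products are known to cut CCN proteins, 4 rose and 1 fell, with a median of 0.91. Mmp3 rose by 3.5, Mmp2 by 1.80, Mmp14 by 0.92 and Mmp13 by 0.91 (DESeq2 adjusted p = 8.26e-20, 6.78e-10, 2.8e-08 and 0.000233). Elane, a neutrophil elastase gene that is also on the neutrophil list, fell by 0.97 (DESeq2 adjusted p = 0.00025). Around Ccn4, 5 of 11 tested readouts of Wnt and beta-catenin rose and 1 fell, with a median of 0.55. Rnf43, which encodes a ubiquitin ligase of Wnt receptors, fell by 0.86 (adjusted p = 0.0136 by DESeq2). The secreted Wnt inhibitor gene Notum rose by 1.91, the inhibitor gene Nkd2 by 1.29, Lef1 by 0.99 and Tcf7 by 0.74 (DESeq2 adjusted p = 3.89e-11, 3.89e-09, 6.49e-06 and 0.000645). Axin2, the usual readout of the pathway, rose from 90.3 ± 19.0 to 138 ± 21.8 normalised counts (SD, n = 4), a change of 0.61 in log2 (standard error 0.21, adjusted p = 0.0246 by DESeq2) with overlapping groups.

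**Figure D5:**
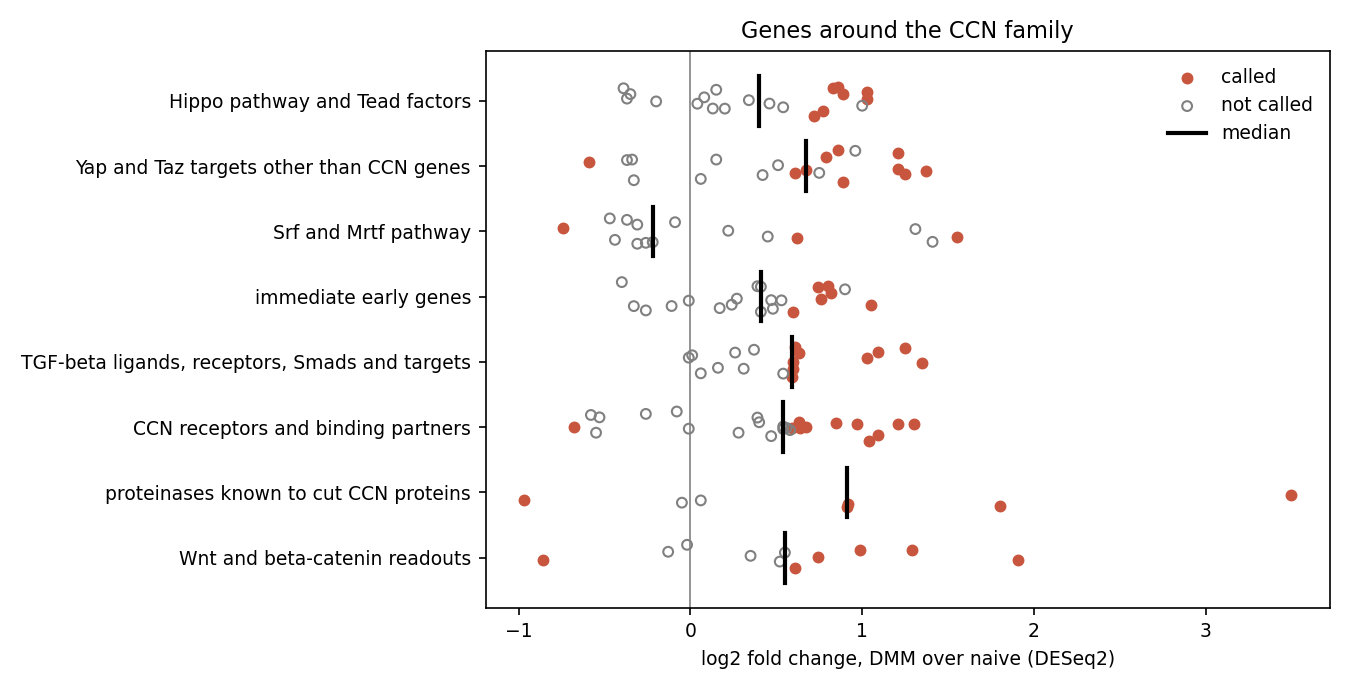
Log2 fold change (DMM over naive, horizontal axis) of the tested genes of each list around the CCN family, with called genes as filled red points, genes not called as open grey points and the list's median as a black bar. The medians lie between -0.22 for the Srf and Mrtf pathway and 0.91 for the proteinases.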

How the data were processed

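RNA-seq of 4 naive and 4 DMM cartilage samples was analysed from 1 table of estimated counts deposited by the authors, who trimmed reads with Trimmomatic, pseudo-aligned them with Kallisto and summed transcripts to genes with tximport. Of the values, 39.2% are not whole, and estimated counts were rounded before testing. The methods name GRCm38, and the GRCh38 in the submitters' processing notes is a human build. Strand use is not given in the sources used here. The labels name a low input kit of NEB, the methods a SMART-Seq kit.

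All 8 libraries entered the Wald test of DESeq2 1.42.0, run in R 4.3.3 (default filters, unshrunken log2 fold changes, DMM over naive, no covariates), the test the methods name. P-values were adjusted by Benjamini-Hochberg over all genes tested, and 95% intervals are those of the Wald test. Shares of counts were compared by exact permutation (two-sided) of all 70 ways to split the libraries, which cannot give a p below 0.0286. In simulated data with 200 genes changed 2-fold, DESeq2 called 168 of them and 24 unchanged genes over 22801 genes. The quasi-likelihood test of edgeR called 150 and 14 over 18388 genes, and limma-voom 147 and 10. The simulation used the spread that DESeq2 itself had fitted to these data and changed only well-counted genes. Far fewer genes were changed in it than were called in the data, so these rates hold for that setting only.

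The CCN members and all gene lists were chosen with earlier results of these data known. Named genes are the members and Ccn6, up to 4 called genes of a list by smallest adjusted p with the called genes that fell, fixed readouts (Yap1, Wwtr1, Tead1, Ankrd1, Tgfb1, Axin2 and Itgav among them), markers, and the 3 genes most like each member by Pearson's r of log2(normalised count + 1) after subtraction of group means. The genes that fell were added after their values were seen, and 1 gene under this rule is not reported here. Transcript lengths (GENCODE vM21) were found for genes holding 86.6% of counts. Motif shares are over RefSeq promoters. Labels with the same number in both groups do not pair the mice: deviations of same-numbered libraries correlated at 0.011, 0.080, -0.181 and 0.098 over 18403 genes. P-values weigh a difference between the groups against the spread between these mice, which DESeq2 models with information from all genes.

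Alternatives were edgeR version 4.0.16, limma-voom (limma version 3.58.1), TMM factors, scaling by total count, filters (no independent filtering, at least 10 counts in 4 libraries, no Cook's filter), a test against a 1.5-fold null, no fold threshold, a replicate block, the median or longest transcript length, and leaving out each library.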

Additional observations from a re-analysis of the deposited data

Results flagged for a closer look

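Naive replicate 2 had 372.5 normalised counts of Ccn1, below the 423.0 to 429.2 of the other naive libraries, which lay unusually close together. Without it the log2 fold change of Ccn1 was 1.27 against 1.31. In the same library 16770 genes had at least 10 counts, where the other naive libraries had between 18276 and 18467. Naive replicate 4 had 2136.2 normalised counts of Itgav against 1564.7 to 1659.0 in the other naive libraries. The skeletal muscle markers took 0.006761% of counts in DMM replicate 1 against 0.0002766 to 0.0009094% in the other DMM libraries. In each case 1 library stood apart from the other 3 of its group by more than Dixon's 95% critical value. Of 56 groups of 4 values looked at, 4 did so, where chance gives about 2.8.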

How the results depend on the processing

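Ccn1, Ccn2 and Ccn4 kept their direction and their side of the threshold under all 9 other settings of their fold change and all 8 fits without 1 library. The log2 fold changes without 1 library were 1.21 to 1.42 for Ccn1, 0.01 to 0.29 for Ccn2, 0.80 to 1.22 for Ccn3, 1.02 to 1.06 for Ccn4 and 1.19 to 1.78 for Ccn5. Under total count scaling, which moves the median over genes averaging 10 or more from -0.01 to 0.14 and the share of called genes that are higher from 56.7% to 80.7%, Ccn2 had 0.26 and was not called. Replicate numbers do not pair the mice. With the replicate block, 2079 genes were called against 2434, Ccn3 had 0.96 (DESeq2 adjusted p = 0.0351), Ccn5 1.52, and 4 of 5 members were called as without it. Ccn3 lost its call with limma-voom (1.02, adjusted p = 0.0561) and in the fits without DMM replicates 1 or 3, so that 3 or 4 members were called over the 8 fits without 1 library. Tested against a 1.5-fold null, 88 genes and 2 members (Ccn1 and Ccn4) were called, while Ccn3 (1.0) and Ccn5 (1.42) were not (adjusted p = 1 and 0.63, DESeq2). That null also left 0 called genes in the Hippo list, 1 among Yap and Taz targets, 0 in the Srf and Mrtf, immediate early, TGF-beta and receptor lists, 2 proteinases and 1 Wnt readout, being the stricter test by construction. Without the fold threshold, 3975 genes were called in all, and 11 in the Hippo, 7 in the Srf and Mrtf and 20 in the receptor list. Over the fits without 1 library, called genes numbered 1851 to 2855 in all, 6 to 7 in the Hippo list, 8 to 10 among Yap and Taz targets, 2 to 3 in the Srf list, 3 to 6 immediate early genes, 5 to 9 in the TGF-beta list, 8 to 18 receptors and partners, 5 proteinases and 4 to 7 Wnt readouts. Lengths change levels by construction: with the longest and the median transcript, Ccn1 had 32.59 and 22.15 in naive and 89.79 and 59.9 in DMM libraries, and Ccn4 22.24 and 26.54, then 50.88 and 59.54. Ccn2 had 192.5 and 225.6 with the median length, and Ccn5 24.46 in DMM with the longest. Ccn6, with the fewest counts, has the widest interval of the family.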
